A study of Mus musculus with 20 samples.

Results

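iXEN cells with RNA of Pou5f1 (Oct4), the transcription factor that holds embryonic stem (ES) cells in the pluripotent state, were chosen from the libraries titled iXEN. They are the cells with 2000 or more UMIs and at least 1 Pou5f1 UMI. A UMI marks 1 captured RNA molecule. The rule found 494 of 11423 iXEN cells, 331 of 5327 in replicate 1 and 163 of 6096 in replicate 2, and they are compared with the 4996 and 5933 cells of the same library without a Pou5f1 UMI. The Pou5f1 count chose the cells, so its level is described and not tested. The study sampled ES-to-iXEN and XEN-to-iPS conversion by droplet single-cell RNA-seq in 10 groups of 2 libraries, 134279 cells in all, of which 106740 had 2000 or more UMIs.

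iXEN (induced extraembryonic endoderm) cells came from the mouse ES line iGata4-Gata6-Venus, with the genotype Col1A1TetO-Gata4/+; R26M2rtTA/+; Gata6H2B-Venus/+. Doxycycline drove the Gata4 transgene, which the study's methods give as a fusion with mCherry, and was then withdrawn. The ES and 48h libraries used for comparison are of the same line, uninduced and under induction. The XEN libraries are of the 3F line, which is Col1A1TetO-OKSmCh/TetO-OKSmCh and, at Rosa26, R26M2rtTA/M2rtTA, with the reporter Oct4-GFPTg/Tg. It carries an inducible Pou5f1 cassette and was kept without doxycycline, but on mouse embryonic fibroblast feeders in the medium for reprogramming, which holds ascorbic acid and a GSK3 inhibitor. The counts cannot separate transgene RNA of Gata4 or Pou5f1 from RNA of the endogenous genes. Replicates are described as technical duplicates, so errors between them do not cover the spread between cultures, and each line is a single line. The study reported batch effects in its ES-to-iXEN time points and corrected for them with mnnCorrect. The counts used here are uncorrected.

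Early in the blastocyst, the inner cell mass splits into the epiblast, which makes the embryo proper, and the primitive endoderm, which makes the yolk sac. Pou5f1 and Sox2 are central to the epiblast program, and Gata6, Gata4 and Sox17 to the endoderm program, which also secretes basement membrane collagen and laminin. When epiblast leaves the naive state it passes through a formative and primed phase (Fgf5, Otx2) and enters the primitive streak (T, Mixl1, Eomes), where Pou5f1 RNA is still present while naive genes such as Zfp42 (Rex1) are already silent.

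3 promoters are shown for the gene that defined the cells, the gene with the highest fold change beside it, and a naive marker given with it for these cells. Each runs from 250 bases before to 50 bases after the start in RefSeq (GRCm38.p6), 5′ to 3′ on the gene's strand, at chr17:35505782-35506081 (Pou5f1, plus strand), chr17:8434173-8434472 (T, plus strand) and chr8:43306960-43307259 (Zfp42, minus strand). Capitals mark the nuclear receptor half-site AGGTCA in Pou5f1, the TCF/LEF core CTTTGA (on the other strand, TCAAAG) in T, and the octamer ATTTGCAT in Zfp42.
Pou5f1: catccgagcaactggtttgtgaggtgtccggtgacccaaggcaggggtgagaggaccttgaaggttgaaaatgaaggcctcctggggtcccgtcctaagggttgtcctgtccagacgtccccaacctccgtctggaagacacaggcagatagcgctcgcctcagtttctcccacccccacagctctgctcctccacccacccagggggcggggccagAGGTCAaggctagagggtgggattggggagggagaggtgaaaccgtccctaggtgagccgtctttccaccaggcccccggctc
T: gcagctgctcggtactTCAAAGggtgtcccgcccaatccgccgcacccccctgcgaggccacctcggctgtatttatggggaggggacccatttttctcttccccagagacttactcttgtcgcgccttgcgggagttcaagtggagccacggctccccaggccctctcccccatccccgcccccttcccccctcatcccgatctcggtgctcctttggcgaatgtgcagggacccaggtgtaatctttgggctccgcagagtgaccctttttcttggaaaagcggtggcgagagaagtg
Zfp42: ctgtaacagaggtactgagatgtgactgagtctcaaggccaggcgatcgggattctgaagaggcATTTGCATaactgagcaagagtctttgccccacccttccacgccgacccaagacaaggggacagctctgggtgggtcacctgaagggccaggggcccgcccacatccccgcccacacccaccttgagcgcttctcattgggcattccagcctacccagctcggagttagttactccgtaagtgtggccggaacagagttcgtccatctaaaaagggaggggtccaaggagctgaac
Searched on both strands, the half-site was in 16.3% of 32851 promoters of this length, the TCF/LEF core in 5257 of them and the octamer in 1.74%. A match describes the letters only and does not show that a factor binds.

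The iXEN libraries were unlike in how many cells showed a Pou5f1 UMI. The share was 6.21% (exact 95% binomial interval 5.58 to 6.90) in replicate 1 and 2.67% (2.28 to 3.11) in replicate 2, at median depths of 7925 and 7963.5 UMIs per cell. Summed over all cells, Pou5f1 stood at 15.7 and 3.46 CPM (UMIs of a gene scaled to a common total). Beside these, ES libraries held 525 and 432 CPM, the 48h libraries 537 and 587 CPM and the XEN libraries 0.630 and 0.708 CPM. Intervals cover counting error only.

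A deeper cell has more chances to show a UMI, and XEN cells, which should lack Pou5f1, showed it in 1.01% and 1.45% of cells at median depths of 15290.5 and 19749 UMIs. Each cell was therefore also thinned to 2000 UMIs. At that depth 2.14% (1.77 to 2.57) and 0.640% (0.455 to 0.874) of iXEN cells had a Pou5f1 UMI, against 0.164% and 0.0863% of XEN cells and 63.2% and 55.9% of ES cells. Both iXEN shares lay above both XEN shares, whose intervals reach up to 0.293% and 0.201%.

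**Figure D1:**
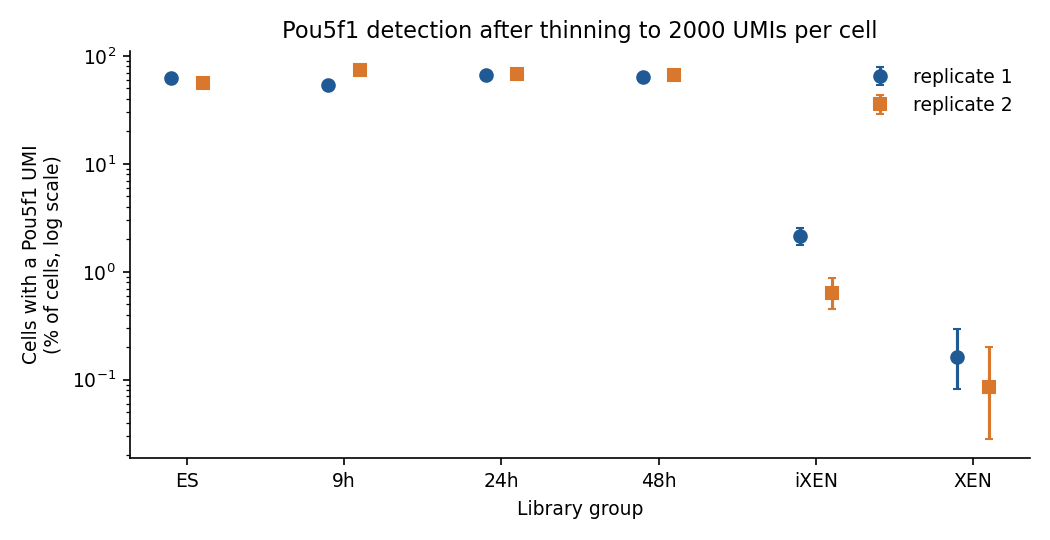
Share of cells with a Pou5f1 UMI (y axis, percent of cells, log scale) after each cell was thinned to 2000 UMIs, for the groups of ES-to-iXEN conversion and XEN (x axis). Points are single libraries and bars exact 95% binomial intervals. The iXEN libraries at 2.14% and 0.640% lie far below ES and 48h and above XEN.

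Most chosen cells held a single Pou5f1 molecule. In replicate 1, 205 cells had 1 UMI, 72 had 2 or 3 and 54 had 4 or more, up to 17. In replicate 2, 147 cells had 1 UMI, 13 had 2 or 3, and 3 had 4 or more, up to 9. The libraries therefore differed more in strongly positive cells (126 of 331 with 2 or more UMIs against 16 of 163) than in cells with 1 UMI. Just below the depth limit, from 1000 to 2000 UMIs, 8 of 488 and 4 of 691 cells had a Pou5f1 UMI, and just above it, up to 3000 UMIs, 11 of 280 and 1 of 306.

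Chosen cells were deeper than the rest, with median UMIs of 10101 against 7788 in replicate 1 and 10782 against 7899 in replicate 2, so each comparison was repeated against cells without Pou5f1 matched on depth. The share of mitochondrial UMIs was 1.49% with and 1.94% without Pou5f1 in replicate 1, and 2.46% and 2.72% in replicate 2. In the depth-matched cells it was 1.78% and 2.40%, so in replicate 2 the direction turned. The caller Scrublet marked 0 doublets and so did not work here. Of the cells with Pou5f1, 8.46% and 4.29% were among the highest 5% of doublet scores, against 4.20% and 3.74% of all the others and 6.34% and 6.13% of the depth-matched ones, where the direction again turned in replicate 2. The iXEN libraries share 42 cell barcodes, and none of these belonged to a chosen cell in both libraries. Shared barcodes of a cell chosen in only 1 of the libraries were not counted.

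Clustering without Pou5f1 showed where these cells were. In replicate 1, a single cluster held 178 of the 331, although it held only 610 cells (11.5% of the library). It is called primitive streak-like because T, Lhx1 and Mixl1 were among its top 10 genes by fold, beside Phlda2, an imprinted placental growth gene, Ifitm1, an interferon-inducible membrane protein, and Stmn2, a microtubule regulator. In it, 29.2% of cells had a Pou5f1 UMI (25.6 to 33.0; 12.5% after thinning), 101 had 2 or more and 48 had 4 or more, and the summed level was 98.7 CPM. No cluster of replicate 2 had these streak markers among its top genes, so a cell type and that library cannot be told apart.

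A smaller cluster of replicate 1, led by Igf2 and Igfbp5, held 34 cells with Pou5f1 among 131 (25.95%, 18.7 to 34.3). Of its cells, 60.3% were among the highest doublet scores, and its median depth of 13781 UMIs was high. In the streak-like cluster 0.164% were. Over the other clusters the share ran from 1.35% to 6.37% in replicate 1 and from 1.29% to 3.67% in replicate 2. The cluster with 6.37% had a median of only 2638 UMIs per cell. Its Pou5f1 level was 25.8 CPM, against 37.6 CPM in the cluster led by Igf2 and Igfbp5. The others of replicate 1, the streak-like cluster aside, had 1.89 to 5.83 CPM. The cluster with 6.37% was not set aside below. In replicate 2, a cluster of 261 cells shared Stmn2, Ifitm1, Igf2 and Igfbp2 with the top genes of those 2 clusters, beside Acta2 and Hand1. It had the highest Pou5f1 level of that library, 20.5 CPM against 1.30 to 6.43 CPM in the others, with 8 chosen cells (3.07%), 2 of the 3 cells with 4 or more UMIs among them. T had 0 UMIs there, and the median depth was 2749 UMIs.

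Without the 2 clusters of replicate 1, that library had 119 of 4586 cells with Pou5f1 (2.59%, 0.611% after thinning), 12 of them with 2 or more UMIs, beside 163 of 6096 (2.67%, 0.640%) and 16 in replicate 2. The 2 clusters were set aside after the data were seen, and the cluster of replicate 2 that shares genes with them was kept, so the remainders are not of like makeup. Pou5f1 and T are given here for 2 clusters of replicate 1, as an example and not a test. In the cluster led by Gkn2 and Gkn1, Pou5f1 was at 5.83 CPM and T at 0.389 CPM. Of its 790 cells, 4 had 2 or more Pou5f1 UMIs. In the streak-like cluster Pou5f1 and T were at 98.7 and 123 CPM. Whether single Pou5f1 UMIs in endoderm cells come from those cells or from free RNA was not tested.

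**Figure D2:**
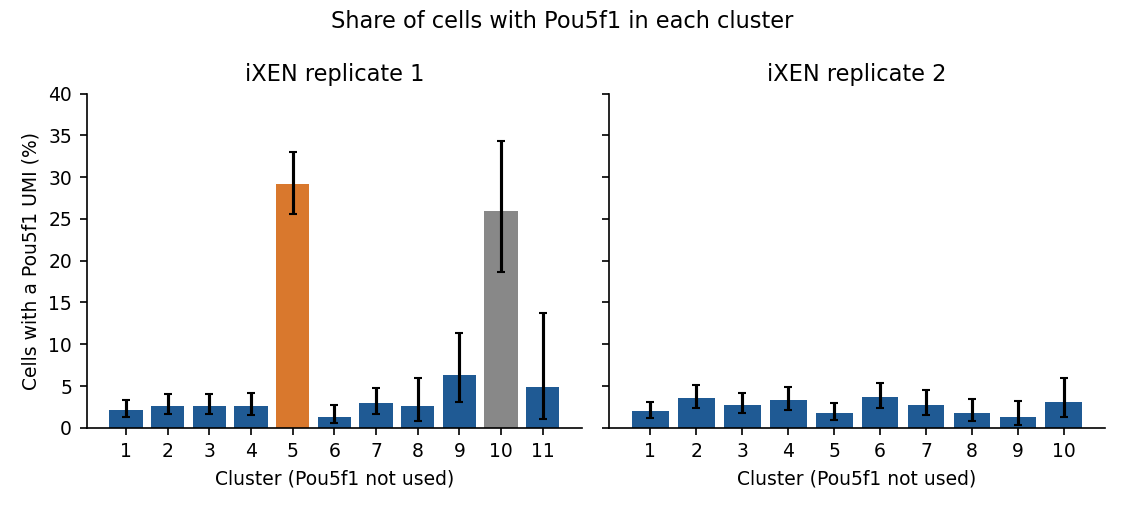
Share of cells with a Pou5f1 UMI (y axis, percent) in each cluster of each iXEN library (x axis, clustered without Pou5f1), with exact 95% binomial intervals. Orange is the primitive streak-like cluster at 29.2%, gray the cluster of high doublet scores at 25.95%, and blue the others, all at or below 6.37%. Clusters differ in depth, and the shares are not at equal depth.

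None of the other markers of the label passed the test over all chosen cells. Zfp42, a naive pluripotency marker, stood at 18.3 CPM with and 24.0 CPM without Pou5f1 in replicate 1 and at 34.5 and 29.8 CPM in replicate 2 (log2 fold change -0.06, SE 0.24, edgeR adjusted p = 0.985). Krt8, a simple-epithelium keratin, was at 434 and 691 CPM, and at 638 and 646 CPM (log2 fold change -0.31, SE 0.30, edgeR adjusted p = 0.847). Its partner Krt18 was at 604 and 1038 CPM, and at 824 and 884 CPM (-0.41, SE 0.32, edgeR adjusted p = 0.778). All 3 were lower with Pou5f1 in replicate 1, the keratins were close to equal in replicate 2, and none passed the test.

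Against the reference libraries, the keratins were at the endoderm end, with 61.2 and 23.1 CPM of Krt8 in ES and 332 and 429 CPM in XEN. Zfp42 was far below its ES level of 778 and 562 CPM and above its XEN level of 1.83 and 1.27 CPM, in iXEN cells with and without Pou5f1 alike. As libraries, iXEN had Gata4 at 203 and 388 CPM, beside 196 and 181 CPM in XEN and 0.381 and 0.152 CPM in ES. Gata4 is also the transgene of this line, so its RNA alone does not bear out the endoderm label. After thinning, Zfp42 was found in 2.72% of the cells with Pou5f1 in replicate 1, and in 0.794% of those with 2 or more Pou5f1 UMIs. In replicate 2 it was found in 6.75%, and in the depth-matched cells without Pou5f1 in 6.04% and 6.75%. The direction of Zfp42 in replicate 1 turned when the streak-like and high doublet score clusters were left out. It was then at 41.6 CPM with and 25.97 CPM without Pou5f1, beside 34.5 and 29.8 CPM in replicate 2, and again did not pass the test (log2 fold change 0.38, edgeR adjusted p = 0.637).

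Each gene was tested with edgeR (quasi-likelihood) on 4 sums (cells with and without Pou5f1 of each library, library as a block, 1 residual degree of freedom), with Benjamini-Hochberg adjustment. Of 13179 genes tested, 252 (1.91%) were called at an adjusted p under 0.05, 237 higher (1.8%) and 15 lower (0.114%) with Pou5f1. Against depth-matched cells 47 of 9986 were called (0.471%), 46 of them higher (0.461%) and 1 lower (0.01%), and all 47 were among the 252 with the same sign. Replicate 1 led these calls. All 252 moved the called way in it and 201 did in replicate 2, where 99 of the 237 higher genes had 3 or fewer UMIs in the cells with Pou5f1. A model of all 22 sums, with the group means and no block, called 0 of 17087 genes in edgeR (1031 at an unadjusted p under 0.05). DESeq2 on the 4 sums with the block called 47, which is not the same set. It included 23 of the 47 genes called against depth-matched cells.

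The genes with the highest fold changes among those called in both comparisons were led by the mesoderm and streak regulator T. It was at 158 CPM with and 4.88 CPM without Pou5f1 in replicate 1. In replicate 2 it had 0 UMIs in the chosen cells, which allows up to 1.55 CPM, and 0.0185 CPM in the others. The fitted log2 fold change was 5.09 (SE 0.35, edgeR adjusted p = 5.33e-44), and it rests on replicate 1 alone. The same holds for the streak regulators Mixl1 (117 and 9.14 CPM) and Lhx1 (97.0 and 8.20 CPM), which had 0 UMIs in the chosen cells of replicate 2. T, Mixl1, Lhx1, Stmn2 and Ifitm1 are also among the top genes of the streak-like cluster, which held 178 of the 331 chosen cells of replicate 1.

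Of the 12 genes highest by fold in that group, T, Mixl1, Lhx1 and Ifitm1 were not higher with Pou5f1 in replicate 2. Rspo3 and Cdh2 had only 2 and 3 UMIs in the chosen cells there. The remaining genes were higher with Pou5f1 in both libraries, which the fit that picked them had both used. Stmn2 was at 131 and 13.7 CPM in replicate 1 and at 30.4 and 0.240 CPM in replicate 2 (log2 fold change 4.42, SE 0.26, edgeR adjusted p = 2.62e-59). Tdgf1 (Cripto), the Nodal co-receptor, was at 113 and 4.15 CPM and at 4.12 and 0.0739 CPM (4.98, SE 0.33, edgeR adjusted p = 1.74e-47). Both are ES genes in these data, with 508 and 385 CPM of Stmn2 and 314 and 317 CPM of Tdgf1 in ES. The 4.12 CPM of Tdgf1 in replicate 2 stand for 8 UMIs, 7 of them from the 3 cells with 4 or more Pou5f1 UMIs.

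Receptors and growth control genes followed at lower folds. Fgfr1, the FGF receptor of the epiblast, was at 86.2 and 17.8 CPM in replicate 1 and 7.21 and 2.35 CPM in replicate 2 (log2 fold change 2.15, SE 0.27, edgeR adjusted p = 1.45e-12). Ccnd1, a cyclin of the G1 phase, was at 76.5 and 20.7 CPM and at 12.9 and 3.62 CPM (1.92, SE 0.25, edgeR adjusted p = 3.32e-11). Socs2, an inhibitor of cytokine signaling, was at 52.8 and 11.8 CPM and at 11.8 and 6.12 CPM (1.75, SE 0.27). For all 3, the level with Pou5f1 was higher in both libraries, and the counting interval of the log2 ratio in replicate 2 lay above 0.

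Rspo3, which enhances Wnt signaling, had a log2 fold change of 3.09 and Fxyd6, an ion pump regulator, of 1.61, with 2 and 28 UMIs in the chosen cells of replicate 2. For Ifitm1 the libraries went apart, with 240 and 57.5 CPM in replicate 1 and 2.06 and 2.35 CPM in replicate 2. Cdh2 (N-cadherin), a cadherin of mesenchymal cells, was at 78.4 and 26.2 CPM in replicate 1 and at 1.55 and 0.758 CPM in replicate 2. No gene of 20 CPM or more was called lower in both comparisons.

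In replicate 1, streak genes stood higher in cells with Pou5f1 than without it, and several were higher still with more UMIs. Mixl1 and Mesp1 were highest in cells with 2 or 3 UMIs (205 and 70.4 CPM) and lower in those with 4 or more (146 and 43.9 CPM). In cells with 0, 1, 2 or 3, and 4 or more Pou5f1 UMIs, T was at 4.88, 51.0, 227 and 389 CPM. Fgf8, a growth factor of the streak, was at 5.18, 43.1, 75.2 and 160 CPM, and Fgf5, the marker of formative epiblast, at 2.54, 16.4, 68.0 and 138 CPM. Endoderm RNA ran the other way. Sox17 was at 252, 179, 57.0 and 30.6 CPM and Sparc, a secreted matrix protein of parietal endoderm, at 9437, 6653, 2639 and 1142 CPM.

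In replicate 2 the classes of 2 or 3 and of 4 or more UMIs held 13 and 3 cells, in which 3 UMIs are worth 17.6 and 60.7 CPM. Stmn2 was at 0.240, 15.1, 88.1 and 364 CPM over the 4 classes. Dppa5a, an RNA-binding protein of pluripotent cells, was at 167, 227, 687 and 607 CPM. Sox17 was at 836, 917 and 629 CPM and had 0 UMIs in the 3 cells with 4 or more Pou5f1 UMIs, where Gata4 was at 20.2 CPM and Sparc at 2103 CPM. Those 3 cells aside, Sparc stayed between 8794 and 8826 CPM.

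**Figure D3:**
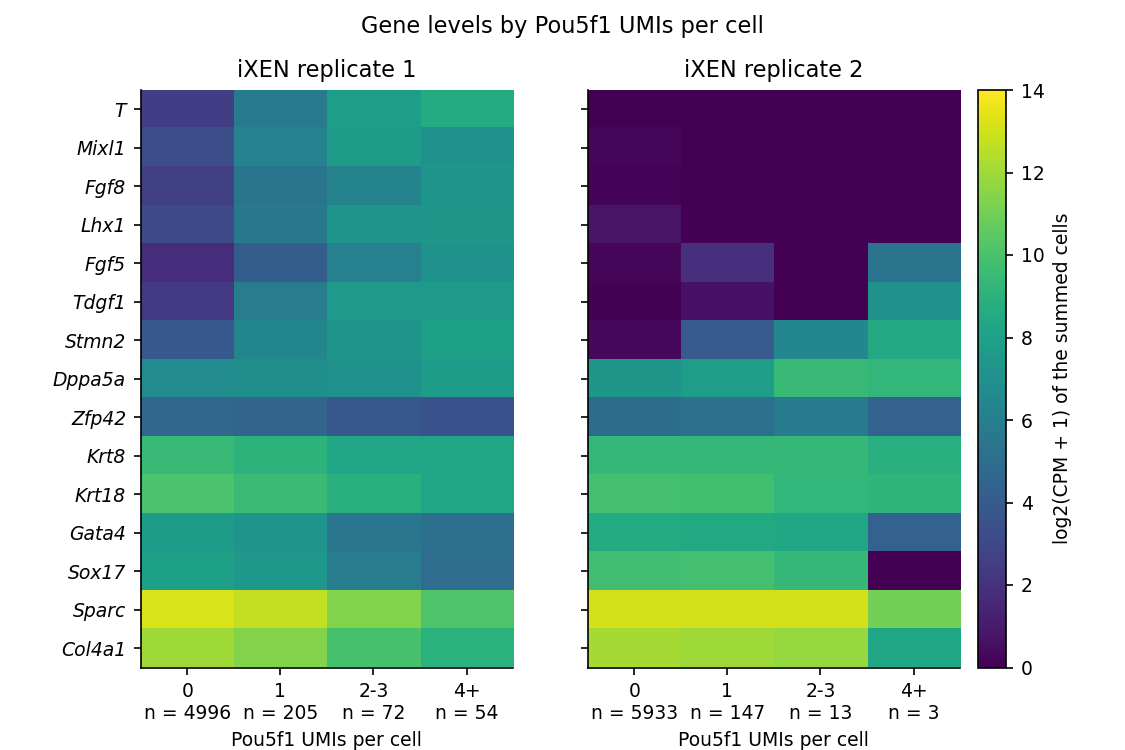
Level of 15 genes (rows, color as log2 of CPM + 1) in summed cells with 0, 1, 2 to 3, and 4 or more Pou5f1 UMIs (x axis, with the number of cells) in each iXEN library. In replicate 1, streak and epiblast genes other than Zfp42 are higher in each class with Pou5f1 than without it (T from 4.88 to 389 CPM). Endoderm genes (Sparc from 9437 to 1142 CPM) and Zfp42 are lower. In replicate 2, T, Mixl1, Fgf8 and Lhx1 had 0 UMIs in all cells with Pou5f1.

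At equal depth, shares of cells with a UMI ran the same way in replicate 1. Each gene was counted by itself, and joint detection within cells was not tested. After thinning, T was found in 19.03% of the chosen cells of replicate 1 and 36.5% of those with 2 or more Pou5f1 UMIs, against 0.906% of depth-matched cells without Pou5f1. In that order, Sox17 was found in 14.5%, 5.56% and 36.3%, Gata4 in 15.7%, 4.76% and 29.6%, and the collagen Col4a1 in 53.5%, 32.5% and 89.7%. In replicate 2, 0 of 163 chosen cells had a T UMI. The floor of 3 used here would be a share of 1.84%, which is not an exact interval. Of these 163 cells 71.8% had Sox17 and 48.5% Gata4, against 67.5% and 51.5% of matched cells. In XEN libraries no cell had T after thinning, and in ES libraries 0.187% and 0.396% had it.

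Grouped by role, 10 of 12 primitive streak genes rose with Pou5f1 (background 1.8% of genes tested), all but Foxa2 and Hhex, which endoderm also expresses. Their median log2 fold change was 3.35, against -0.02 over all genes. In replicate 1 the median log2 ratio of CPM + 1 was 3.06 and in replicate 2 -0.08. All but Eomes of the 10 had 0 UMIs in the chosen cells of replicate 2, so the count describes replicate 1. Against depth-matched cells 7 of the 12 had enough counts and 5 rose. Without the 2 clusters set aside 2 of 7 rose, T and Mixl1, and the median was 0.68. Beside T, Mixl1, Lhx1 and Fgf8, the mesoderm regulator Mesp1 was at 36.6 and 2.68 CPM in replicate 1 and had 0 UMIs in both sums of replicate 2. Eomes, a T-box factor of streak and endoderm, was at 36.4 and 5.04 CPM in replicate 1 and at 2.06 and 2.07 CPM in replicate 2.

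Of 15 formative and primed epiblast genes, 8 rose and 0 fell (1.8% of all genes rose), with a median of 1.61 (1.44 in replicate 1 and 0.31 in replicate 2). Against depth-matched cells 3 of 11 rose, with a median of 1.00, and without the 2 clusters set aside 0 of 13 did, with a median of 0.29. Fgf5 rose from 2.54 to 52.5 CPM in replicate 1 and from 0.203 to 3.61 CPM in replicate 2 (log2 fold change 4.40, SE 0.38, edgeR adjusted p = 1.00e-27). Otx2, a regulator of the exit from naive pluripotency, was at 26.7 and 4.60 CPM in replicate 1 but had 2 UMIs in the chosen cells of replicate 2. The DNA methyltransferase Dnmt3b was at 128 and 47.8 CPM, and at 40.7 and 37.5 CPM.

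Of 23 pluripotency genes tested, 7 rose and 0 fell (1.8% of all genes rose), with a median of 0.13. Against depth-matched cells 3 of 17 rose and the median turned to -0.10, whereas without the 2 clusters 3 of 21 rose and the median was 0.12. Sox2, the partner of Pou5f1, was at 20.7 and 4.01 CPM in replicate 1 and at 3.09 and 0.314 CPM (6 UMIs in the chosen cells) in replicate 2. Utf1 was at 21.0 and 1.05 CPM and at 3.09 and 0.647 CPM, and Nanog at 8.35 and 0.229 CPM and at 0.515 and 0.0554 CPM (1 UMI in the chosen cells). These levels remain far under those of ES, where Sox2 was at 223 and 221 CPM and Nanog at 80.4 and 70.8 CPM. Esrrb, a naive regulator at 61.5 and 50.9 CPM in ES, had 0 UMIs in the chosen cells of both libraries.

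Dppa5a did not pass the test over all cells, although its level was higher with Pou5f1 in both libraries (145 against 107 CPM and 277 against 167 CPM, log2 fold change 0.62, SE 0.23, edgeR adjusted p = 0.208). Klf4 and Sall4, which endoderm also expresses, were at 109 and 236 CPM with Pou5f1 in replicate 1, against 227 and 200 CPM without. In replicate 2 they were at 326 and 195 CPM, against 324 and 201 CPM. Neither passed the test.

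Among 19 primitive endoderm genes none rose or fell, and all 19 had a log2 fold change below 0. The median was -0.48 (-1.003 in replicate 1, -0.12 in replicate 2). It was -0.42 against depth-matched cells and -0.10 without the 2 clusters set aside. Over all genes, 6852 of 13179 were below 0. Gata4 was at 104 and 211 CPM in replicate 1 and at 347 and 390 CPM in replicate 2 (-0.56, SE 0.25, edgeR adjusted p = 0.382). Sox17 was at 122 and 252 CPM, and at 869 and 836 CPM, and Gata6 at 80.3 and 133 CPM, and at 281 and 290 CPM. Gata4 and Gata6 were lower with Pou5f1 in both libraries and Sox17 in replicate 1, with far smaller gaps in replicate 2.

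1 of 15 parietal endoderm genes fell, the plasminogen activator Plat (32.9 against 72.7 CPM and 25.8 against 38.6 CPM). Of 18 visceral endoderm genes 1 fell, the fetal carrier protein Afp (0.808 against 5.43 CPM and 0.515 against 3.27 CPM). In the chosen cells Afp was at or under the level of 3 UMIs, 0.808 and 1.55 CPM. The share of genes called lower over all genes was 0.114%, and against depth-matched cells 0 of 15 parietal and 0 of 14 visceral genes fell. Col4a1 was at 1856 and 4101 CPM in replicate 1 and at 4030 and 4365 CPM in replicate 2, and did not pass the test. The retinol carrier Rbp4, of visceral endoderm, was at 255 and 566 CPM and at 398 and 572 CPM (log2 fold change -0.81, SE 0.28, edgeR adjusted p = 0.136).

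**Figure D4:**
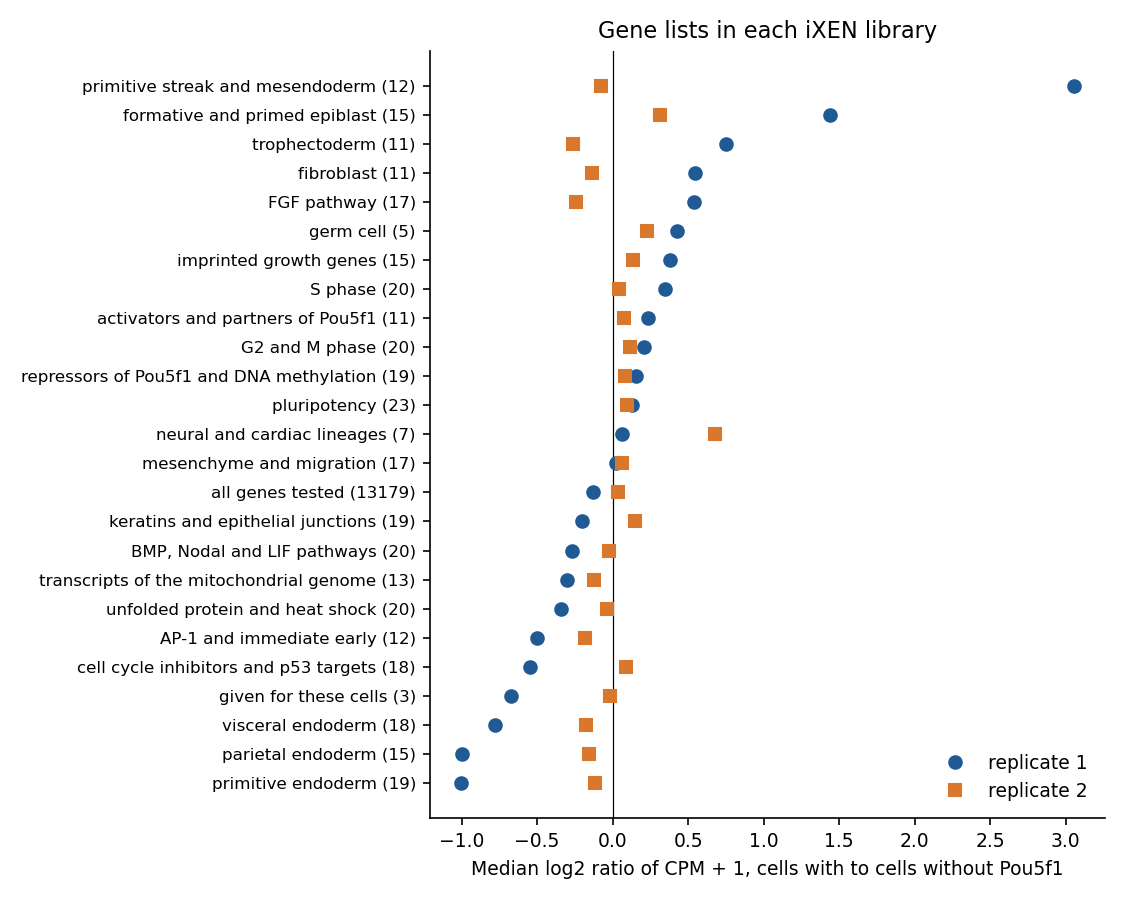
Median log2 ratio of CPM + 1, cells with against cells without Pou5f1 (x axis), for each gene list (y axis, genes tested in parentheses) in replicate 1 (blue) and replicate 2 (orange). In replicate 1 primitive streak genes lie at 3.06 and primitive endoderm genes at -1.003, and in replicate 2 they lie at -0.08 and -0.12.

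Signaling genes moved in a few members. Of 20 BMP, Nodal and LIF genes 5 rose (1.8% of all genes did), against 1 of 15 with depth-matched cells and 1 of 18 without the 2 clusters. They were the Nodal inhibitor Lefty1 (14.5 and 1.40 CPM in replicate 1), Lefty2, the ligands Nodal and Bmp7, and Tdgf1. Lefty1, Lefty2 and Nodal had 0 UMIs in the chosen cells of replicate 2, where Bmp7 was at 1.03 CPM. The median log2 fold change of the list was -0.17, with 13 of 20 genes below 0. Of 17 FGF pathway genes tested, Fgfr1 and the effector Etv1 rose, against 1 of 16 with depth-matched cells and, without the 2 clusters, 0 higher and 1 lower of 16. Of 15 imprinted growth genes 3 rose, against 0 of 14 with depth-matched cells, and without the 2 clusters 0 of 14 rose and 1 fell. The 3 were Phlda2 (251 and 58.6 CPM, and 32.5 and 31.0 CPM), the splicing-related Snrpn (171 and 53.7 CPM, and 38.6 and 27.6 CPM) and the growth inhibitor Grb10.

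Of 19 repressors of Pou5f1 and DNA methylation genes, Dnmt3b and Uhrf1, which guides maintenance methylation, rose (1.8% of all genes did) and none fell. Against depth-matched cells 0 of 18 rose, and without the 2 clusters 0 of 19. The nuclear receptors Nr2f2 and Nr6a1, which can bind the half-site shown above and repress Pou5f1, were at 8.08 and 15.3 CPM, and at 65.5 and 58.8 CPM, in replicate 1. In replicate 2 they were at 17.5 and 22.3 CPM, and at 58.7 and 58.6 CPM, and neither passed the test.

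Of 20 S phase genes 2 were called higher (1.8% of all genes were) and 19 had a log2 fold change above 0. The median was 0.26 (0.35 in replicate 1, 0.04 in replicate 2) and -0.02 without the 2 clusters. Against depth-matched cells 0 of the 20 were called. Of 20 G2 and M phase genes, 0 were called. Of these 20, 1 had a log2 fold change below 0, and the median was 0.24 (0.21 in replicate 1, 0.12 in replicate 2). Without the 2 clusters the median was 0.07. No p53 target or unfolded protein gene was called, and of 12 immediate early genes Ier3 fell (0.114% of all genes did), while 0 of the 12 fell against depth-matched cells. Without the 2 clusters 2 of the 12 fell, Ier3 and Egr1, and 1 of 20 unfolded protein and heat shock genes, the chaperone Hspa5 (log2 fold change -0.34). Of 19 keratin and junction genes tested, Cldn3 and the lectin Lgals3 rose, against 0 of 18 with depth-matched cells and 1 of 18 (Lgals3) without the 2 clusters. Of 17 mesenchyme genes Cdh2, Cnn1 and Tpm2 rose, against 1 of 15 with depth-matched cells and 0 of 16 without the 2 clusters. None of the 13 mitochondrial genome transcripts was called.

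Markers of other lineages were low. No trophectoderm, fibroblast, germ cell or neural and cardiac gene was called, out of 11, 11, 5 and 7 tested, and no 2-cell-like gene had enough counts. The summed level of the fibroblast list was 74.3 CPM with and 115 CPM without Pou5f1 in replicate 1, and 66.5 and 20.0 CPM in replicate 2, where Acta2, a smooth muscle actin, gave 61.3 and 11.3 CPM of it. The part of these cells in the results was not tested.

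The streak-like cluster of replicate 1 allows a comparison within 1 cluster, 178 cells with (median 9840.5 UMIs) and 432 without Pou5f1 (7548.5 UMIs). It is 1 library with no test, and the genes named here were picked after their values were seen. T was at 262 CPM with and 47.9 CPM without Pou5f1 (log2 ratio 2.45, counting interval 2.20 to 2.71). The epiblast chromatin factor Utf1 was at 35.2 and 1.97 CPM (4.16, 3.04 to 5.53), the kinase Pim2 at 68.3 and 8.46 CPM, Tdgf1 at 183 and 41.7 CPM and Fgf5 at 91.4 and 23.4 CPM.

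Other genes were higher in the cells of that cluster without Pou5f1. The growth factor Igf2 was at 37.8 CPM with and 232 CPM without Pou5f1, and Dlk1, a Notch-like growth regulator, at 8.93 and 56.7 CPM. Bmp4 was at 43.1 and 131 CPM, Hand1, a factor of extraembryonic and lateral mesoderm, at 48.4 and 109 CPM, and Acta2 at 34.7 and 140 CPM. The collagen Col1a1 was at 3.15 and 37.2 CPM. Not all mesoderm genes ran this way, since Mesp1 was at 66.2 CPM with and 26.2 CPM without Pou5f1. Endoderm matrix RNA was low in both, with Sparc at 402 and 550 CPM beside 9437 CPM in all cells of the library without Pou5f1.

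**Figure D5:**
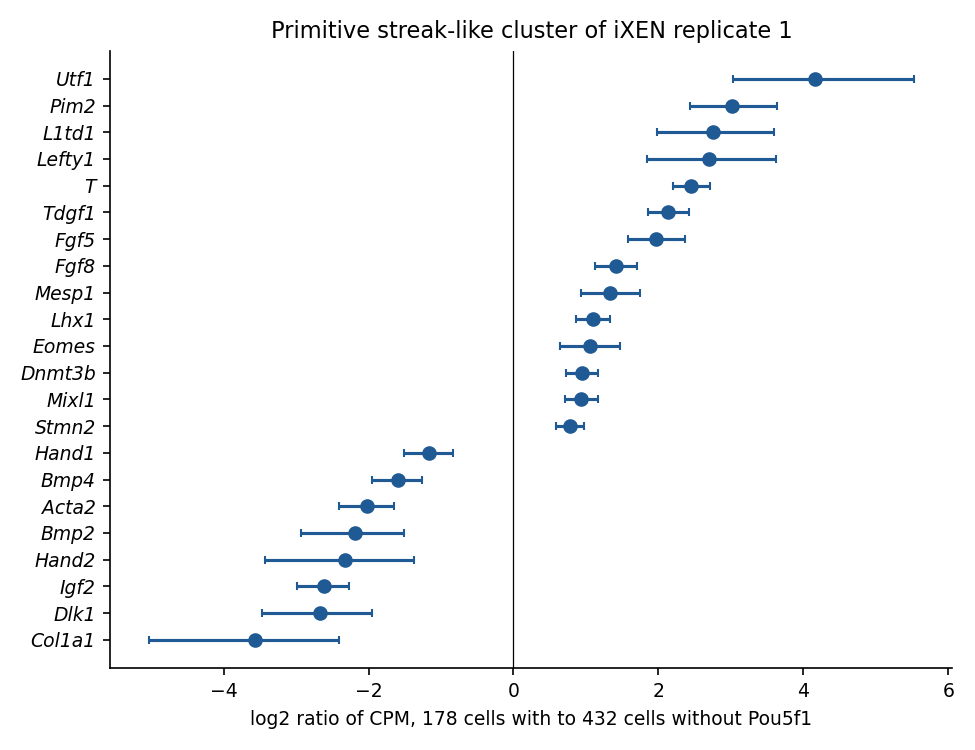
log2 ratio of CPM in the 178 cells with Pou5f1 to the 432 cells without it (x axis) for 22 genes (y axis) within the primitive streak-like cluster of replicate 1, with 95% counting intervals and no test. Utf1 at 4.16 and T at 2.45 lie above 0 and Igf2 at -2.61 and Acta2 at -2.01 below it.

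Outside the 2 set-aside clusters, some endoderm genes were near the level of the cells without Pou5f1 and a few fell. Without both clusters, Gata4 was at 214 CPM with and 230 CPM without Pou5f1 in replicate 1, Sparc at 10765 and 10352 CPM and Krt8 at 653 and 727 CPM. Of 12732 genes tested, 26 rose (0.204%) and 24 fell (0.189%; 0.393% called in all), and 20 of the 50 were also called over all cells with the same sign. Dppa5a then passed the test (397 and 117 CPM in replicate 1, 277 and 167 CPM in replicate 2, log2 fold change 1.19). A few cells may weigh heavily here. Of 537 Dppa5a UMIs in all chosen cells of replicate 1, 154 came from cells with 4 or more Pou5f1 UMIs. The streak-like chosen cells held only 21 of the 537, and outside the 2 clusters only 1 cell had 4 or more Pou5f1 UMIs. In replicate 2, 147 of 538 came from the 16 cells with 2 or more. Of 19 primitive endoderm genes 2 fell, the activin inhibitor Fst (319 and 373 CPM, 571 and 761 CPM) and the basement membrane protein Nid1 (221 and 257 CPM, 197 and 258 CPM). Of 18 visceral endoderm genes 3 fell, among them Rbp4 (459 and 624 CPM, 398 and 572 CPM, -0.52) and Spink1, a protease inhibitor (678 and 885 CPM, 360 and 461 CPM). Stmn2 was at 3.20 and 1.26 CPM in replicate 1 and at 30.4 and 0.240 CPM in replicate 2, and T at 13.6 and 0.593 CPM in replicate 1.

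Between XEN (0%) and ES (100%), on an axis of 100 genes highest in each against the other, the sum of chosen cells lay at 35.0% in replicate 1 and 15.7% in replicate 2. Cells without Pou5f1 lay at 18.5% and 11.7%, and depth-matched ones at 18.5% and 11.9%. The difference of 16.5 and 3.97 percentage points has a mean of 10.3 ± 8.89 (SD, n = 2 libraries), so its size is not set beyond the spread between libraries. Cells with 4 or more Pou5f1 UMIs lay at 50.7% (54 cells) and 55.3% (3 cells), and the 48h libraries at 60.9% and 52.6%. In replicate 1, 48 of the 54 cells were in the streak-like cluster. The axis sets ES against XEN alone, so a middle value does not show cells partway through conversion. Single cells, thinned to 2000 UMIs, were scored apart by the ES genes' part of the scaled UMIs of both gene sets. In replicate 1, 104 of 331 chosen cells (31.4%) scored above 0.8 and 32.0% from 0.2 to 0.8. In replicate 2, 1 of 163 (0.613%) scored above 0.8 and 17.2% from 0.2 to 0.8. Of the cells without Pou5f1, 3.92% and 0.169% scored above 0.8. The ES genes include Stmn2, Ifitm1 and Tdgf1, which are high in the streak-like cluster, so the score does not measure naive pluripotency. Within the streak-like cluster, 54.5% of the cells with and 42.4% of those without Pou5f1 scored above 0.8. The median score of all its cells was 0.789.

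Set against whole ES libraries in a model of all 22 sums, the chosen cells differed at 4476 of 17087 genes (26.2%, called at an edgeR adjusted p under 0.05 where the log2 fold change was also 1 or more either way), 2406 higher (14.1%) and 2070 lower (12.1%). All 19 primitive endoderm genes were higher and 22 of 30 pluripotency genes lower than in ES, and 8 of 12 streak genes were higher. The sum of replicate 1 mixes unlike cells, so these counts do not describe 1 cell state. Gata4 and Sox17 were at 15.8 and 24.2 CPM in its streak-like chosen cells. In its chosen cells outside the 2 set-aside clusters they were at 214 and 265 CPM. Against XEN 2802 genes differed (16.4%), 1681 higher (9.84%) and 1121 lower (6.56%), with RLE scaling 1849 and 635, and without iXEN replicate 1 the balance turned to 609 and 815. There 10 of 12 streak, 11 of 15 formative and 11 of 30 pluripotency genes were higher. Of the pluripotency genes 3 were lower, and of 19 primitive endoderm genes 0 were higher and 1 lower. The 10 streak genes higher than in XEN are those that rose with Pou5f1, all but Eomes with 0 UMIs in the chosen cells of replicate 2. The 8 higher than in ES include Foxa2, which was at 49.3 and 271 CPM in the chosen cells of replicates 1 and 2. Comparisons with ES and XEN share the sums of chosen cells.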

How the data were processed

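Single-cell libraries (10x Genomics 3' v2) were processed by the authors with SEQC against mm10 (GRCm38), which removed cells of high mitochondrial share or low complexity. The deposited values are whole-number UMI counts for each gene in each cell and are not normalized. Of 22936 symbols, 22012 were placed in GENCODE vM21. Cells with 2000 or more UMIs were kept. The iXEN libraries hold 47364024 and 56046894 UMIs in these cells, and counting intervals cover counting error only.

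UMIs were summed per library over cells with and without Pou5f1, since cells are not replicates. Sums were compared with edgeR 4.0.16 in R 4.3.3 (TMM, filterByExpr, quasi-likelihood, Benjamini-Hochberg over all genes tested, library as a block, Pou5f1 left out). Both sums of a block come from 1 library, and their deviations from the group means correlated at 0.742 over 5416 genes. Matched cells were drawn from the same library by depth. Each iXEN library was clustered apart by the Leiden method (scanpy 1.11.5, leidenalg 0.10.2, resolution 1). Named genes are the 4 markers, the 12 highest among genes of 20 CPM or more called in both comparisons (12 lowest: none) and up to 4 members of each of 25 gene lists by level. Other list members, named because they were called, and the genes inside the streak-like cluster were chosen after their values were seen. The cells and lists were chosen with earlier results of these data known. A few list members are not reported here.

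On simulated sums, 93 of 100 genes changed 2-fold and 99 of 100 changed 4-fold were recovered among 13181 genes, with 9 false calls. The changed genes were drawn only from well-counted genes, and the simulated spread was a small value set alike for all genes. These rates do not carry over to genes of few UMIs or to a wider spread between libraries. Recovery of changes that differ between the libraries, as those of T, Mixl1 and Lhx1 did, was not tested. Alternatives were DESeq2 1.42.0, RLE, no count filter, no block, 5000 UMIs, 2 or more Pou5f1 UMIs, thinning, high doublet scores left out, each library left out, and, added after the data were seen, clusters left out. Between the iXEN libraries, log2 ratios had an SD of 0.519 over genes, where the 10 groups ran from 0.0742 to 1.01.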

Additional observations from a re-analysis of the deposited data

How the results depend on the processing

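The number of genes called between iXEN cells with and without Pou5f1 was 252 as reported and 241 at 5000 UMIs, 264 without high doublet scores, 267 with RLE and 201 without a count filter. It was 47 against depth-matched cells, 81 after thinning, 432 with 2 or more Pou5f1 UMIs (274 higher and 158 lower, beside 237 and 15 as reported), 47 in DESeq2, 108 without the streak-like cluster and 50 without that cluster and the one of high doublet scores, the last 2 added after the data were seen. With no replicate block, which here also means a model of all 22 sums, it was 0 (1031 genes at an unadjusted p under 0.05), and between 0 and 0 without either iXEN library (348 without replicate 1 and 1165 without replicate 2 at an unadjusted p under 0.05), in the same edgeR model, in which a lone sum is taken to vary like the other groups. Called list members fell from 43 to 13 against depth-matched cells, and to 0 without either library. Without replicate 1, T (-3.58), Mixl1 (-6.28), Lhx1 (-8.66), Ifitm1 (-0.47), Dnmt3b (-0.16) and Phlda2 (-0.21) reversed, and without replicate 2 they were at 5.13, 3.80, 3.68, 2.17, 1.54 and 2.21, but the median over all genes was -0.24 in the fit without replicate 1. Dnmt3b and Phlda2 lie above that median and were slightly higher with Pou5f1 in CPM of replicate 2, so for these 2 the turn in sign is not one of their level. T, Mixl1 and Lhx1 had 0 UMIs in the chosen cells of replicate 2, so their negative values depend on the prior count and give no size. Cdh2 (-0.51) and Peg3 (-0.34) reversed without both clusters, and Acta2 (-2.48) with 2 or more UMIs. The cause was not tested. Of the alternatives run for named genes, 1131 kept their side of the threshold with no called value changing sign, 57 lost the call, 26 gained one and 9 reversed.

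The share of cells with Pou5f1, 4.32% over both libraries, was 1.24% with 2 or more UMIs and 1.34% after thinning. In replicate 1 (6.21%) it was 6.94% at 5000 UMIs, 2.37% with 2 or more UMIs, 2.14% after thinning, 3.24% without the streak-like cluster and 2.59% without both clusters. In replicate 2 (2.67%) it was 0.262% with 2 or more UMIs and 0.640% after thinning. Against ES, 4476 genes were called, 2918 to 4248 without 1 library (2918 without iXEN replicate 2) and 4455 with a replicate block. RLE and DESeq2 called 2538 and 2771 higher, 1854 and 1874 lower. Against XEN, 2802 were called, 1339 to 2290 without 1 library (1339 without XEN replicate 1, 1424 without iXEN replicate 1, 1828 without XEN replicate 2) and 2752 with the block. DESeq2 called 2403 higher and 719 lower.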
